A study of Danio rerio with 7 samples.

Results

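The genes described here are the most strongly reduced ones in zebrafish larvae kept at low oxygen. They were chosen from the measured values themselves, by a rule on CPM (the count of a gene per 1e6 counts of its library). A gene was a member if its mean over the normoxia libraries was at least 1 CPM, if its mean over the hypoxia libraries was at most 40% of that, and if its highest hypoxia value lay below its lowest normoxia value. Of the 25049 genes in the count table, 181 met all 3 conditions. Since the rule used the comparison of hypoxia with normoxia, the size of each member's difference between the groups is a description here and no test of it is given.

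The samples were whole wild-type zebrafish larvae, exposed between 81 and 96 hpf (hours after fertilization). The hypoxia group was held at 6% O2 and has 3 libraries, and the normoxia group was held at 20.9% O2 and has 4. Each library was made from poly(A) RNA of a pool of 30 larvae, so that every value is an average over whole animals and all their tissues. In such bulk samples, fewer cells of a type and less RNA per cell cannot be told apart.

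Larvae of this age still draw on yolk while the gut, the liver and the pancreas take up their functions. The exocrine pancreas secretes digestive enzymes as inactive precursors, the enterocytes of the intestine carry peptidases and transporters on their brush border, and the liver, together with the yolk syncytial layer in fish, secretes the apolipoproteins that carry lipids in blood. The unpaired fin fold, the skin with its ion-transporting cells (ionocytes) and the enzymes that modify sterols and foreign compounds are the other settings in which many of the members are known to act.

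Library totals were 67083058 to 69920400 counts in hypoxia and 70275114 to 78235938 in normoxia. Together the members held 0.341%, 0.20% and 0.144% of all counts in hypoxia replicates 1 to 3, against 0.891%, 0.573%, 0.671% and 0.585% in normoxia replicates 1 to 4. Across all 23716 genes that passed the filter on low counts, the quasi-likelihood test of edgeR, with p-values adjusted by Benjamini and Hochberg's method, called 1766 genes (7.45%) lower in hypoxia and 729 (3.07%) higher. A call needed an adjusted p under 0.05 together with a change of more than 0.6 on the log2 scale. In 8417 of the tested genes (35.5%), every hypoxia library lay below every normoxia library. All 181 members passed the filter and all were among the genes called lower, of which they made up 10.25%, but as they were selected on the same contrast nothing is read from this. Their median log2 fold change was -1.48, beside a median of -0.00438 over all tested genes. Scaling by library totals alone, as the rule does, moved the median of all tested genes to -0.10 and that of the members to -1.57, and gave 2484 genes called lower and 427 called higher.

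The membership rested more on some libraries than on others. Hypoxia replicate 1 lay nearest to normoxia and hypoxia replicate 3 farthest from it in most members. Without hypoxia replicate 1 the rule took in 374 genes, including all 181, and without hypoxia replicate 3 it took in 107, all of them members. Without normoxia replicate 1, in which most members were highest, 143 genes met it, of which 136 are members.

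The count table lists genes by Ensembl identifier, and a table of names gave symbols for 171 of the members. A standard zebrafish symbol that the RefSeq annotation also uses stood for 90 members, whose identity is the most certain. A further 31 carry names of clones or sequencing projects, and 10 have no symbol. For 22 members the symbol is in capitals, the form used for human genes, and for 28 it is given to several zebrafish identifiers, so that these names show the gene family rather than a particular copy. Among the 28 are ENPP7, SLC6A19, LCT, VTN, LECT2, APOD, FMOD and NPC2, whose other copies are not described here. Of 114 members that could be placed by symbol in RefSeq, 40 overlap another gene there, among them apoa1a, apoea, and1, he1.1, ceacam1, fetub, ugt1b2 and ugt5b4. How reads from overlapping or near-identical genes were assigned is not stated for these counts, so the values of such genes are uncertain to that extent.

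Several members are direct neighbours in the genome. With no other protein-coding gene between them lay 9 pairs, which are prss59.1 and prss59.2, ctrb.3 and ctrb.2, ctrb.2 and ctrb.1, ela2l and ela2, cyp2aa8 and cyp2aa9, mep1a.1 and mep1a.2, olfm4.2 and olfm4.1, cfh and cfhl1, and cfhl1 and cfhl2. Each of these pairs belongs to one gene family, and near-identical copies may share reads.

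The rule caps the share left in hypoxia at 40% with no lower limit, and sets a minimum for CPM with no upper limit. Within these limits the members spanned a wider range in CPM than in that share. Mean normoxia CPM ran between 1.008 and 958, with a median of 7.65, and was under 2 CPM in 31 members and 100 or more in 13. CPM is a share of a library's counts and is not divided by gene length, so its order over genes is not an order of transcript numbers. In hypoxia the members retained a median of 33.6% of their normoxia mean. For 131 of them this share was between 30% and 40%, for 38 between 20% and 30%, and for 12 it was 20% or less. No member had 3 counts or fewer in any library, and the lowest single count was 4, in ENSDARG00000110614.

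**Figure D1:**
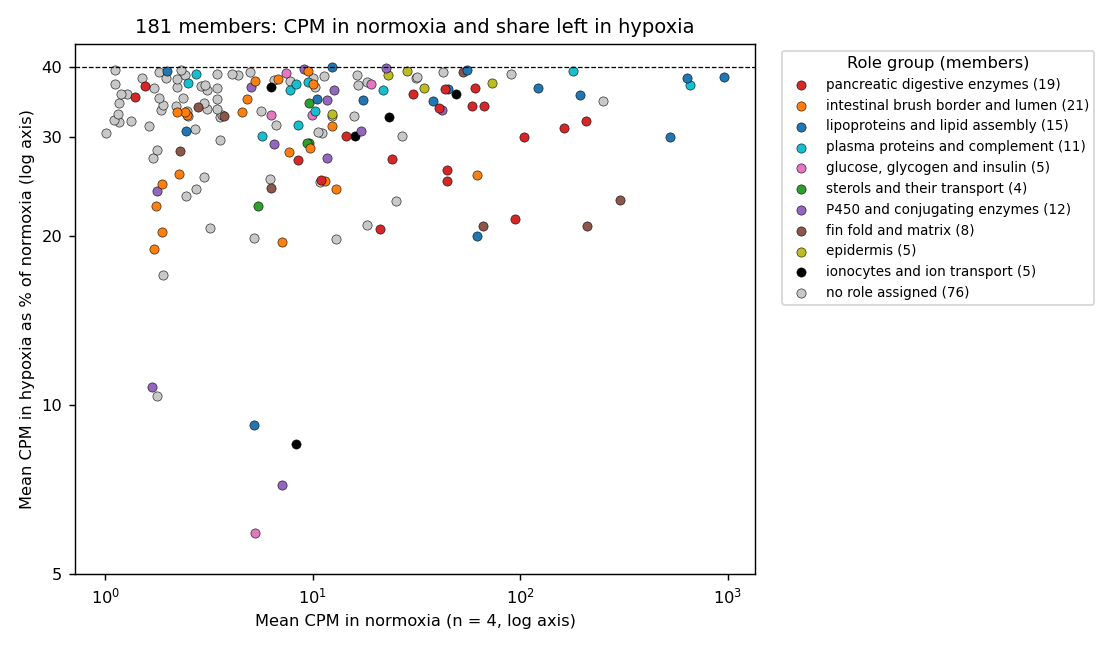
Each point is 1 of the 181 members, with its mean CPM over the 4 normoxia libraries on a log axis and its mean CPM over the 3 hypoxia libraries as a percentage of that on the other log axis, coloured by role group. The dashed line marks the 40% limit of the rule. Most points lie between 30% and 40% at every level of CPM, and the members at or under 10%, cyp2aa8, RHCG and apobb.2 among them, had under 10 CPM in normoxia.

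Among the lowest shares was that of cyp2aa8, a cytochrome P450 monooxygenase. In the order of replicates, which is kept for all values that follow, it had 0.739, 0.358 and 0.429 CPM in hypoxia, against 10.5, 5.66, 7.72 and 4.38 CPM in normoxia (7.198%). One of several identifiers named RHCG (ENSDARG00000007080) had 0.435, 0.477 and 1.22 CPM in hypoxia, against 5.45, 7.38, 9.18 and 11.2 CPM in normoxia (8.53%). The name is that of ammonia transporters and was used to group this gene with ionocytes, though it does not show which copy acts there. apobb.2, an apolipoprotein B, had 0.7101, 0.402 and 0.329 CPM in hypoxia, against 6.89, 4.12, 4.82 and 5.05 CPM in normoxia (9.21%). In these 3 genes the highest hypoxia value was 0.169 (cyp2aa8), 0.223 (RHCG) and 0.172 (apobb.2) of the lowest normoxia value, so that the groups were far apart.

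At the limit of the rule stood cyp2x9 (39.6%), ugt5b4 (39.9%) and ELOVL2 (39.98%) just inside, and SLC34A2 (40.02%), akr1a1a (40.03%) and MTHFD1 (40.1%) just outside. The condition on overlap removed 2 further genes. One was a second identifier named afp4, at 36.8%, and the other ENSDARG00000117717, which had 0.638, 0.358 and 0.429 CPM in hypoxia, against 0.512, 0.461, 18.95 and 0.409 CPM in normoxia, so that its low ratio came from normoxia replicate 3 alone.

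By the known roles of the genes they are named for, 105 members were grouped into 10 sets after their values had been seen. The sets rest on names, and the tissue of expression was not measured in these whole-larva samples. The other 76 members were placed in no set, though some of them have a known function. The first set, the digestive enzymes of the exocrine pancreas, has 19 members, which in hypoxia retained a median of 31.1%. Their summed CPM was 543, 259 and 152 in hypoxia, against 1430, 815, 963 and 940 in normoxia. They comprise trypsinogens, chymotrypsinogens, elastases, carboxypeptidases, amylase and lipases, so that enzymes for protein, starch and fat were all represented.

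Among the trypsinogens, precursors of the protease that activates the other enzymes, prss59.2 had 116, 54.4 and 27.8 CPM in hypoxia, against 292, 166, 186 and 179.5 CPM in normoxia. Its neighbour prss59.1 had 36.1, 16.7 and 8.09 CPM, against 134, 74.8, 86.7 and 82.7 CPM, and prss1 had 83.1, 44.5 and 24.3 CPM, against 224, 129, 151 and 147 CPM. The share left was 21.5% in prss59.1, 31.1% in prss1 and 32.1% in prss59.2. In all 3 genes hypoxia replicate 1 was highest and hypoxia replicate 3 lowest within hypoxia, and normoxia replicate 1 stood above the other normoxia libraries.

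The chymotrypsinogens ctrb.1, ctrb.2 and ctrb.3 retained 30.04%, 27.5% and 34.1% of their normoxia means, and the related protease ctrl 36.6%. The most highly counted of them, ctrb.1, had 56.1, 25.1 and 12.6 CPM in hypoxia, against 156, 79.2, 94.4 and 87.4 CPM in normoxia. The elastases ela3l, ela2 and ela2l, which cut elastic and other proteins, retained 25.1%, 26.2% and 34.1%. These genes were ordered over the libraries as the trypsinogens were.

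Of the carboxypeptidases, which trim proteins from the carboxyl end, CPB1 retained 36.8%, and the 2 identifiers named CPA1 33.8% and 35.5%. For starch, amy2a, pancreatic amylase, had 4.49, 1.998 and 1.74 CPM in hypoxia, against 16.7, 7.83, 8.75 and 10.3 CPM in normoxia (25.2%). For fat, the 2 identifiers named CEL, a lipase activated by bile salts, retained 27.3% and 30.1%, and pdia2, a disulfide isomerase of the pancreas, 35.9%.

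PLA2G1B, the pancreatic phospholipase A2, differed from the other enzymes in its pattern over libraries. It had 0.551, 0.596 and 0.586 CPM in hypoxia, against 1.64, 0.803, 1.65 and 2.15 CPM in normoxia (37.1%). Its hypoxia libraries lay close together, and its highest normoxia library was replicate 4. These values rest on 38, 40 and 41 counts in hypoxia replicates 1 to 3.

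**Figure D2:**
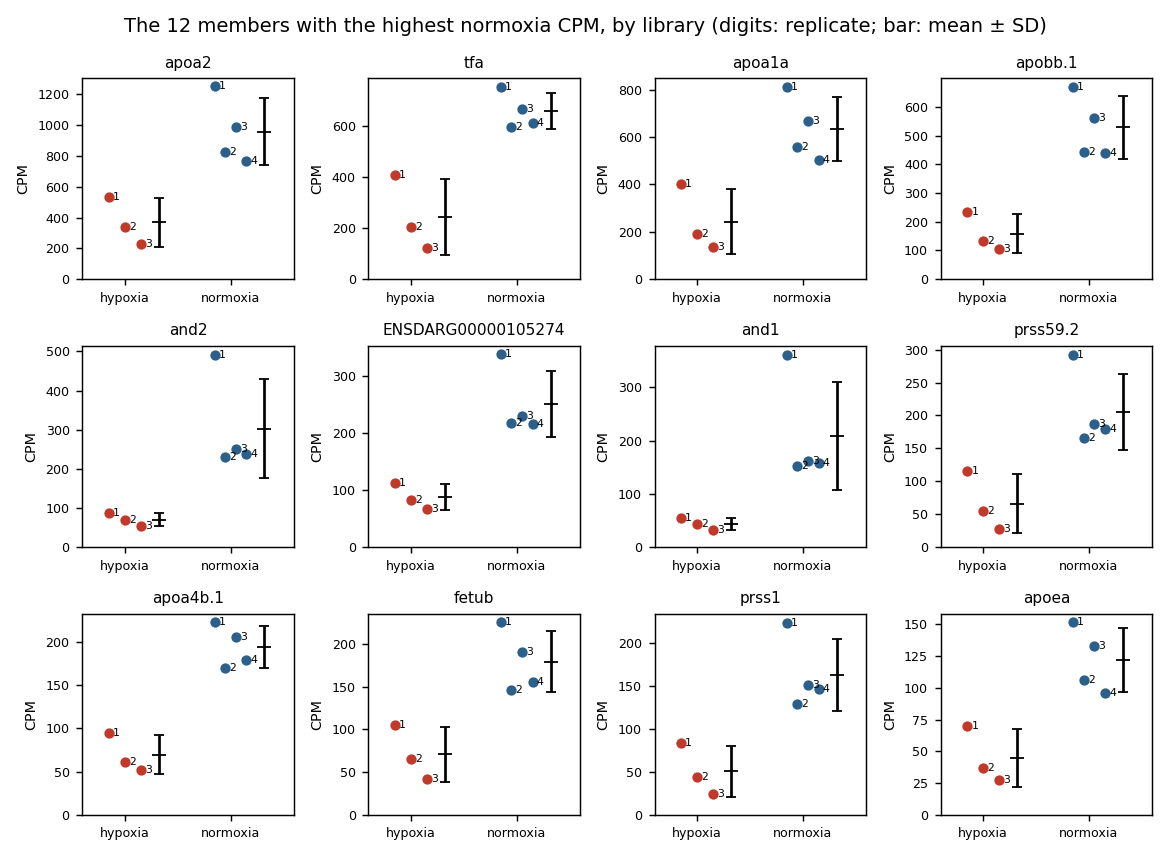
CPM by library for the 12 members with the highest mean normoxia CPM, with hypoxia on the left and normoxia on the right of each panel. Points are libraries marked with their replicate number, and bars give the mean ± SD (n = 3 in hypoxia, n = 4 in normoxia). In all 12 panels hypoxia replicate 1 is the highest and hypoxia replicate 3 the lowest hypoxia library, and normoxia replicate 1 is the highest normoxia library.

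The set grouped as intestinal has 21 members, which retained a median of 28.7% (18.96% to 39.4%). Most of them had few counts, with a median normoxia mean of 5.26 CPM. They include peptidases of the brush border, transporters, mucus and surface proteins, and chitinases.

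The most highly counted of them was ANPEP (ENSDARG00000103878), aminopeptidase N, which removes amino acids from the amino end of peptides at the cell surface. It had 22.9, 12.8 and 12.04 CPM in hypoxia, against 69.2, 50.9, 59.5 and 67.8 CPM in normoxia (25.7%). A second identifier of this name, also a member, retained 37.8%. Another one (ENSDARG00000036809), which is no member, retained 65.8% of its normoxia mean of 33.7 CPM. Its log2 fold change, -0.51, was too small for a call, so the copies named ANPEP were not all strongly reduced. DPEP1 and naaladl1, which also cleave small peptides, retained 28.7% and 31.4%, and LCT, lactase, 38.1%. SLC6A19, the transporter of neutral amino acids, retained 37.4%. In these 6 members hypoxia replicate 1 was the highest hypoxia library, while normoxia replicate 1 was exceeded by another normoxia library in 4 of them.

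The lowest shares in the intestinal set belonged to itln3, an intelectin that binds sugars on microbes, and to ENPP7, which digests sphingomyelin. itln3 had 0.522, 0.313 and 0.143 CPM in hypoxia, against 1.71, 1.55, 1.79 and 1.83 CPM in normoxia (18.96%). ENPP7 had 2.23, 1.15 and 0.772 CPM in hypoxia, against 8.196, 5.01, 7.598 and 7.53 CPM in normoxia (19.5%). NPC1L1, the protein for cholesterol uptake, had 3.94, 1.34 and 1.201 CPM in hypoxia, against 9.72, 6.12, 7.36 and 7.39 CPM in normoxia (28.3%). In all 3 genes every hypoxia library lay below every normoxia library, which the rule requires, and hypoxia replicate 1 was the closest to normoxia.

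The astacin protease c6ast4 retained 25.1% and the membrane mucin muc13a 24.3%. The neighbours olfm4.1 and olfm4.2, olfactomedins, retained 20.4% and 33.2%, and the neighbours mep1a.2 and mep1a.1, subunits of the brush border protease meprin, 24.8% and 33.2%. The chitinases chia.6 and chia.1 retained 33.3% and 39.4%, and duox, the dual oxidase that makes hydrogen peroxide at epithelial surfaces, 25.8%. In RefSeq, c6ast4 and both pairs of neighbours overlap another gene.

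The lipoprotein set of 15 members held the most counts. Its summed CPM was 1457, 836 and 602 in hypoxia, against 3432, 2313, 2811 and 2192 in normoxia, and the median share left was 35.7%. It includes 11 apolipoprotein genes, whose products assemble and carry lipids in blood.

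The member with the highest CPM of all was apoa2, apolipoprotein A-II. It had 536, 341 and 228 CPM in hypoxia, against 1251, 826, 989 and 765 CPM in normoxia (38.4%). apoa1a, apolipoprotein A-I, had 401, 191 and 138 CPM in hypoxia, against 812, 557, 667 and 504 CPM in normoxia (38.3%). Hypoxia replicate 1 lay closest to normoxia in both genes, and in both of them the lowest normoxia library was replicate 4.

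The apolipoprotein B genes, whose products are the scaffold of secreted lipoprotein particles, differed from each other in the share left. Besides apobb.2 they are APOB, with 18.4, 10.5 and 8.24 CPM in hypoxia, against 89.1, 50.8, 61.4 and 46.7 CPM in normoxia (19.97%), and apobb.1, with 235, 135 and 106 CPM in hypoxia, against 669.6, 441, 562 and 439.7 CPM in normoxia (30.1%). The share left was thus smallest in the copy with the fewest counts and largest in the copy with the most.

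The apolipoprotein A-IV genes apoa4b.3, apoa4b.2 and apoa4b.1, which act in the export of dietary and yolk lipid, retained 30.8%, 34.8% and 35.7%. apoea, apolipoprotein E, had 70.28, 36.7 and 27.2 CPM in hypoxia, against 152, 106, 133 and 96.2 CPM in normoxia (36.8%). APOD retained 34.9%, apom 39.5% and afp4 36.6%. DGAT2, which makes triglyceride, and ELOVL2, which elongates polyunsaturated fatty acids, retained 35.1% and 39.98%, and creb3l3b, a transcription factor related to one that controls lipid genes in the liver of mammals, 39.3%. In all 15 members of this set hypoxia replicate 1 was the highest and hypoxia replicate 3 the lowest hypoxia library.

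Proteins of blood plasma and complement made up 11 members, with a median share of 37.2%, the second highest of the 10 sets. tfa, transferrin, which carries iron, had 409, 203 and 121 CPM in hypoxia, against 754, 598, 665 and 613 CPM in normoxia (37.2%). fetub, fetuin B, had 105, 65.7 and 41.5 CPM in hypoxia, against 226, 146, 190.1 and 156 CPM in normoxia (39.4%). tfa was highest in hypoxia replicate 1 and lowest in hypoxia replicate 3, and fetub likewise.

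In the complement system, the regulator cfh and its neighbours cfhl1 and cfhl2 retained 36.4%, 37.4% and 37.6%, and c4b 37.3%. The acute phase proteins apcs and crp3 retained 31.6% and 36.4%, vitronectin (VTN) 33.4% and LECT2 30.1%. f8, coagulation factor VIII, had 1.55, 0.8497 and 0.787 CPM in hypoxia, against 4.33, 2.93, 1.996 and 1.67 CPM in normoxia (38.9%), and the ratio of its highest hypoxia to its lowest normoxia value, 0.926, was the nearest to 1 of any member. This set depended on hypoxia replicate 3, since 2 of its 11 members still met the rule without that library.

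Glucose handling was represented by 5 members. ins, insulin, the hormone of the islet beta cells, had 4.84, 2.4 and 1.402 CPM in hypoxia, against 10.1, 7.12, 6.53 and 5.82 CPM in normoxia (38.99%). HKDC1, a hexokinase, had 10.8, 5.55 and 4.88 CPM in hypoxia, against 19.8, 18.5, 20.1 and 17.7 CPM in normoxia (37.2%). PPP1R3G and ppp1r3c2a, subunits that direct a phosphatase to glycogen, both retained 32.9%. ppp1r3c2a had 2.91, 3.77 and 3.13 CPM in hypoxia, against 9.96, 9.46, 10.9 and 9.48 CPM in normoxia, so that its lowest hypoxia library was replicate 1. This set did not share 1 pattern over the libraries, and the median correlation between its members with group means removed was 0.232.

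Sterol synthesis and transport gave 4 members. LSS, which closes the sterol rings, had 3.14, 2.55 and 2.76 CPM in hypoxia, against 9.96, 9.63, 10.1 and 8.81 CPM in normoxia (29.3%). The member named SQLE (ENSDARG00000079946), squalene epoxidase, an enzyme that uses molecular oxygen, had 3.41, 2.504 and 2.303 CPM in hypoxia, against 9.39, 10.5, 9.802 and 7.66 CPM in normoxia (29.3%). A second identifier of that name (ENSDARG00000063319) had means of 0.88 CPM in hypoxia and 0.607 CPM in normoxia, the opposite direction, and did not pass the test (log2 fold change 0.63, edgeR adjusted p = 0.062). EBP, a sterol isomerase, retained 34.5% and NPC2, which passes cholesterol out of lysosomes, 22.6%. The normoxia libraries of LSS and EBP lay close together, while those of SQLE ran from 7.66 to 10.5 CPM. Normoxia replicate 4 was the lowest in LSS, SQLE and EBP. All 4 members of the set also met the rule without normoxia replicate 1 and without hypoxia replicate 3.

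The set of P450 monooxygenases and conjugating enzymes has 12 members, with a median share of 32.2%. Enzymes of these 2 kinds oxidize sterols, vitamins and foreign compounds or couple them to soluble groups. Also placed in the set were the carboxylesterases ces3 (30.8%) and ces2b (33.5%), and the 11-beta-hydroxysteroid dehydrogenase-like hsd11b1lb (36.8%). The neighbours cyp2aa8 and cyp2aa9 were the lowest, and cyp2aa9 had 0.217, 0.179 and 0.143 CPM in hypoxia, against 3.16, 1.12, 1.65 and 0.754 CPM in normoxia (10.8%). cyp2k18 retained 27.6% and cyp27a2, of the sterol 27-hydroxylase family, 36.4%. The glucuronosyltransferase ugt1b2 had 0.884, 0.253 and 0.143 CPM in hypoxia, against 2.89, 1.5, 1.16 and 1.53 CPM in normoxia (24.1%), with the lowest ratio of hypoxia replicate 3 to hypoxia replicate 1 in this set, 0.162. CYP2R1, the 25-hydroxylase of vitamin D, differed from the rest of the set in that normoxia replicate 1 was its lowest normoxia library, with 2.304, 1.52 and 1.86 CPM in hypoxia, against 5.62, 7.13, 7.501 and 5.71 CPM in normoxia (29.2%).

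Fin fold and matrix genes numbered 8 and had the lowest median share of the 10 sets, 26.3%. In this set normoxia replicate 1 was a median of 2.16 times the median of the other normoxia libraries. It raised the normoxia means, so the low share and its rank rest in part on that library. The actinodins and1, and2 and and3 encode structural proteins of the actinotrichia, the fibres that stiffen the fin fold. and2 had 87.6, 68.8 and 54.4 CPM in hypoxia, against 492, 230.1, 249.6 and 239 CPM in normoxia (23.2%). and1 had 55.1, 42.6 and 32.7 CPM in hypoxia, against 361, 153, 162 and 159 CPM in normoxia (20.8%), and and3 had 16.8, 13.4 and 11.3 CPM, against 127, 40.9, 47.9 and 48.9 CPM (20.9%). Normoxia replicate 1 stood far above the other 3 normoxia libraries in all 3 genes, and those 3 libraries agreed closely.

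The same lead of normoxia replicate 1 was seen in vcanb, versican, a proteoglycan, with 24.3, 19.8 and 17.9 CPM in hypoxia, against 89.8, 39.3, 42.3 and 39.5 CPM in normoxia (39.2%). bhlha9, a transcription factor of limb and fin buds, retained 32.7%, and FMOD, fibromodulin, 24.3%. lyve1a, a hyaluronan receptor of lymphatic vessels, had 0.652, 0.671 and 0.629 CPM in hypoxia, against 2.48, 2.17, 2.22 and 2.33 CPM in normoxia (28.3%), with little spread in either group. Without normoxia replicate 1, 6 of the 8 fin fold and matrix genes met the rule, and without hypoxia replicate 3, 7 did.

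The set grouped as epidermis has 5 members, with the highest median share of the 10 sets, 37.4%. They are GSN (37.4%), one of the identifiers named gelsolin, which severs actin filaments, capn12 (36.7%), a calpain protease, GRHL1 (38.7%), a transcription factor of surface epithelia, krt18a.2 (33.04%), a keratin, and s100a11 (39.3%), which binds calcium. krt18a.2 was placed here by its name alone. Its ratio of hypoxia replicate 3 to hypoxia replicate 1, 0.403, was the lowest in the set, whose median was 0.705. The abundant keratins of the larval skin were not members. The 7 with the highest CPM among those listed retained 79.1% (krt4), 85.3% (krt8), 85.8% (krt5), 96.02% (krt17), 98.2% (cyt1), 103% (cyt1l) and 104% (krt91). None of these 7 was called lower. The next listed keratin by CPM, krt92, had a mean of 285 CPM in normoxia, retained 54.2% and was called lower. Of the whole list of keratins and cornified epidermis, 16 of 45 genes were called lower. TMM-scaled library sizes correct for the overall shift between the groups. With them, 2 of the 5 epidermis members kept within the rule, against 141 of all 181 members.

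Ionocytes, the skin cells that exchange ions, acid and ammonia with the water, gave 5 members. TRPV6, the calcium channel of calcium-transporting ionocytes, had 9.49, 7.19 and 6.09 CPM in hypoxia, against 26.97, 21.5, 24.1 and 20.6 CPM in normoxia (32.6%). ca15a, a carbonic anhydrase of proton-secreting ionocytes, had 5.999, 4.73 and 3.804 CPM in hypoxia, against 22.6, 14.4, 15.7 and 11.5 CPM in normoxia (30.2%). ceacam1, an adhesion molecule, had 22.2, 16.7 and 13.7 CPM in hypoxia, against 71.4, 41.6, 44.2 and 38.7 CPM in normoxia (35.8%). The group's summed CPM was 40.8, 31.1 and 27.1 in hypoxia, against 135, 90.9, 98.7 and 87.0 in normoxia.

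Other copies of these transport genes did not all share the direction. The member named SLC4A1 (ENSDARG00000024560), an anion exchanger, retained 36.9%, while another identifier of that name (ENSDARG00000012881) rose to 52.6 ± 8.71 CPM in hypoxia (SD, n = 3), against 27.6 ± 1.02 CPM in normoxia (SD, n = 4), a difference of 1.02 on the log2 scale (standard error 0.09; edgeR adjusted p = 1.95e-05). Of 2 further identifiers named RHCG, one fell to 4.36 ± 1.40 CPM in hypoxia, against 10.01 ± 1.38 CPM in normoxia (log2 fold change -1.10, adjusted p = 0.00057, edgeR). The other had 69.5 ± 5.62 CPM in hypoxia, against 54.8 ± 14.3 CPM in normoxia, and did not pass the test (log2 fold change 0.44, adjusted p = 0.051, edgeR).

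Placed in none of the sets were 76 members, which had a median normoxia mean of 3.1 CPM and retained a median of 34.4%. The one with the highest CPM, ENSDARG00000105274, has no symbol and had 112, 83.2 and 66.6 CPM in hypoxia, against 339, 218, 231 and 216 CPM in normoxia (34.7%). The lowest shares among them were those of zgc:86738 (10.4%), si:ch211-255i20.3 (17.03%), vwa11 (19.8%) and ENSDARG00000104569 (19.8%). he1.1, a hatching enzyme that dissolves the egg envelope, had 1.36, 0.328 and 0.3003 CPM in hypoxia, against 3.94, 1.71, 4.99 and 2.17 CPM in normoxia (20.7%), with a normoxia spread in which replicates 1 and 3 were both above the other libraries. MTHFD1L, of mitochondrial folate metabolism, retained 30.2% and mymx, which fuses muscle precursor cells, 37.2%.

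To place the members among related genes, 16 gene lists were counted under the same test. Over all tested genes that test called 7.45% lower and 3.07% higher. Of the list of digestive enzymes, 26 of 32 tested genes were called lower and none higher, and 20 of the 26 are members. The list includes he1.1, the hatching enzyme, which is 1 of these members. The 6 called lower without being members had mean normoxia values between 0.249 CPM (prss60.1) and 27.8 CPM (ctsl.1), and 4 of them lay under 1 CPM, the minimum of the rule. In the list of sterol and isoprenoid synthesis 15 of 24 genes were called lower, 3 of them members, and in that of hepatic glucose and lipid metabolism 22 of 45, 8 of them members. The median log2 fold changes of these lists were -1.47, -0.69 and -0.58.

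Lists with many genes called lower, beside 7.45% of all tested genes, could hold no member at all. In cell cycle and DNA replication 16 of 41 genes were called lower, and among keratins and cornified epidermis 16 of 45, with median log2 fold changes of -0.57 and -0.48, and no gene on either list met the rule. The keratin krt18a.2, a member, is not on the keratin list, which holds krt18a.1 (81.8%, not called). Of the P450 monooxygenases 22 of 63 were called lower, 6 of them members, and 4 higher. Of the ionocyte transport genes 9 of 27 were called lower, 5 of them members, and 1 higher, and of the extracellular matrix genes 10 of 52 were called lower, the 3 actinodins among them. The iron and heme list held 1 member, tfa, among 3 of 23 genes called lower, and 1 was called higher.

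The other lists, which mark further cell types or responses, held no member. Their counts stand beside shares of 7.45% lower and 3.07% higher over all tested genes, and some lists lay near these. Of 34 leukocyte and inflammation genes, 4 were called lower and 1 higher, and of 41 muscle genes 2 lower and 0 higher. Of 46 immediate early and stress genes, 2 were called lower and 2 higher. Of 43 opsin and phototransduction genes, 1 was called lower and 5 higher, and of 39 lens crystallins 0 lower and 2 higher. In the pathway of the hypoxia-inducible factors, 20 of 45 genes were called higher and 0 lower, and in the circadian list 21 of 42 higher and 0 lower. The summed CPM of the muscle list was 108056 to 110454 in hypoxia, against 90505 to 98296 in normoxia, and that of the lens crystallins 10500 to 11332 in hypoxia, against 9163 to 10892 in normoxia. The part of such shifts in the members' CPM was not tested.

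**Figure D3:**
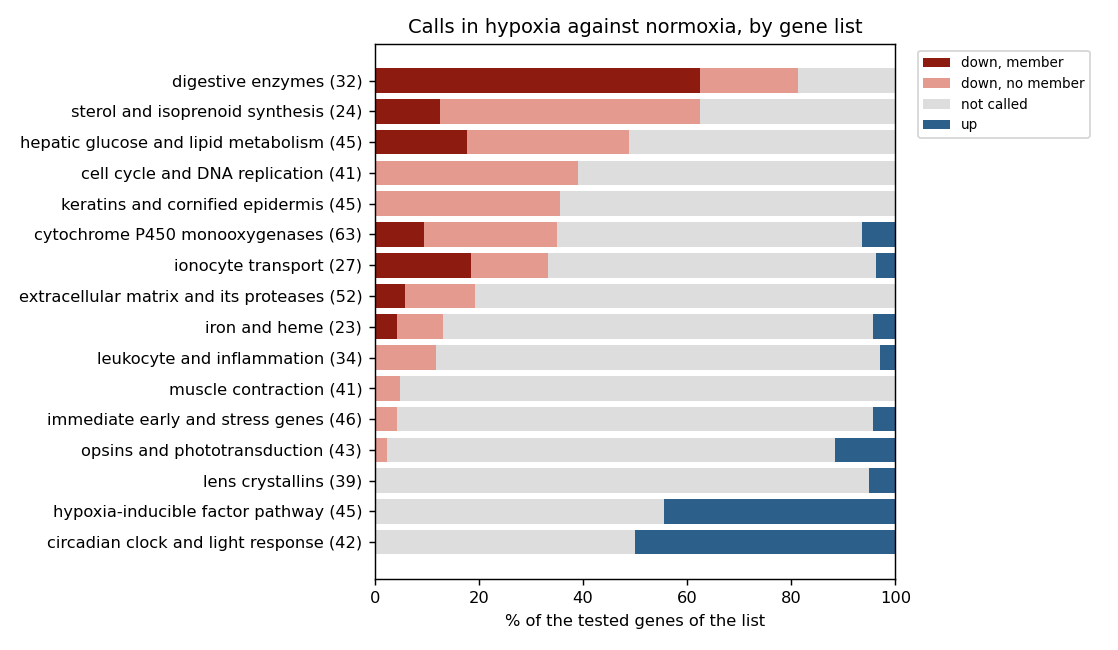
Share of the tested genes of each of 16 gene lists (number tested in brackets) called lower in hypoxia as members of the set, called lower without being members, not called, or called higher, by edgeR. Members make up 20 of 32 digestive enzymes, and 9 of the 16 lists hold no member. Over all tested genes 7.45% were called lower and 3.07% higher.

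Among the hypoxia libraries the members were graded in nearly the same way. Hypoxia replicate 1 was the highest in 168 members (92.8%) and hypoxia replicate 3 the lowest in 150 (82.9%), while hypoxia replicate 2 was the lowest in 28 and hypoxia replicate 1 in 3. The order of replicate 1 over replicate 2 over replicate 3 held in 141 members (77.9%). The same order held in 69.9% of the 1322 genes called lower that are no members and had a mean normoxia CPM of at least 1, and in 28.5% of all 19949 tested genes at that level. Replicate numbers carry no order of their own, and with TMM-scaled library sizes hypoxia replicate 3 was the lowest in 151 members. The rule uses the hypoxia mean, so a low value in hypoxia replicate 3 favours membership. How much of the members' grading comes from this selection was not tested.

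The ratio of hypoxia replicate 3 to hypoxia replicate 1 had a median of 0.492 in the members, 0.732 in the other genes called lower and 0.983 in all tested genes. It was under 0.5 in 93 members, and the part of the selection by the rule in this ratio was not tested. By role, the median ratio was 0.331 in pancreatic enzymes, 0.428 in P450 and conjugating enzymes, 0.432 in plasma proteins, 0.444 in lipoproteins and 0.493 in the intestine. It was nearer to 1 in ionocytes (0.642), sterols (0.663), glucose (0.693), epidermis (0.705) and fin fold and matrix (0.715).

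**Figure D4:**
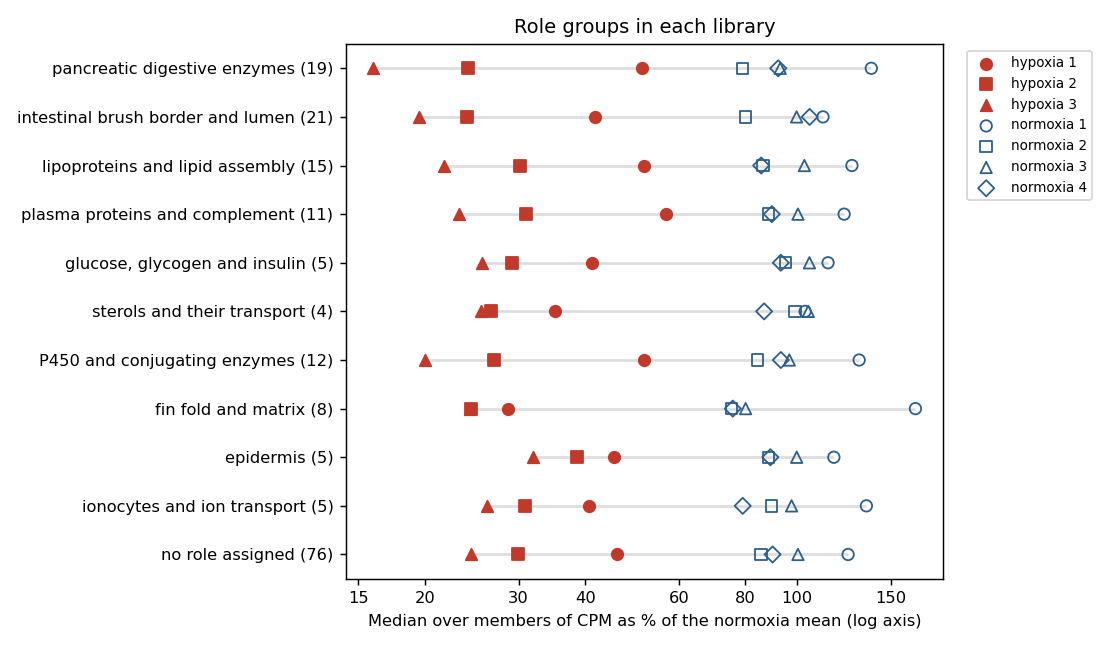
Median over the members of each role group (number in brackets) of their CPM in each library as a percentage of the normoxia mean, on a log axis. Filled red symbols are the 3 hypoxia libraries and open blue symbols the 4 normoxia libraries. For pancreatic enzymes the 3 hypoxia medians are 51.1%, 24.1% and 16.0%, and for fin fold and matrix genes 28.7%, 24.4% and 24.3%.

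How the lower level was spread over the hypoxia pools is given by role group, with no test of the differences between groups. For pancreatic enzymes the median share was 51.1% in hypoxia replicate 1 and 16.0% in hypoxia replicate 3. For lipoproteins these values were 51.6% and 21.8%, for plasma proteins 56.7% and 23.1%, and for the intestine 41.8% and 19.5%. Fin fold and matrix genes had medians of 28.7% in hypoxia replicate 1 and 24.4% and 24.3% in the other hypoxia libraries. These medians do not show the grading of single genes. The summed CPM of the set was 188, 149 and 120 in hypoxia replicates 1 to 3, and and1, and2 and and3 fell in the same order. Without hypoxia replicate 3, 12 of 19 pancreatic enzymes, 4 of 15 lipoprotein genes and 7 of 8 fin fold and matrix genes met the rule.

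In 4 members hypoxia replicate 3 was higher than hypoxia replicate 1. They are the RHCG member, at 2.80 times, B3GNT3 and ppp1r3c2a, at 1.08 times each, and PLA2G1B, at 1.06 times. The RHCG member was the sole one of these with a large difference. Its normoxia libraries ran the other way from most members too, with replicate 1 the lowest and replicate 4 the highest.

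Within normoxia, replicate 1 was the highest library in 141 members (77.9%), and replicate 2 the lowest in 101 and replicate 4 in 63. The same library was highest in 64.8% of the other genes called lower and in 36.5% of all tested genes. The rule divides by the normoxia mean, so a high value in replicate 1 favours membership. How much of the contrast with other genes comes from this selection was not tested. Its ratio to the median of the other normoxia libraries had a median of 1.38 in the members, 1.13 in the other genes called lower and 1.01 in all tested genes, and was 1.5 or more in 62 members. By role, its median was 2.16 in fin fold and matrix genes, 1.53 in pancreatic enzymes and 1.52 in ionocytes, against 1.13 in the intestine and 1.05 in sterols.

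The median coefficient of variation (CV, the SD as a percentage of the mean) of the members over the 4 normoxia libraries was 20.8%. It was 10.9% in the other genes called lower, and 6.80% in the 9819 tested genes with a normoxia mean between 2.50 and 21.1 CPM, the middle range of the members. Without normoxia replicate 1 the members' median CV was 12.2%. A high value in replicate 1 raises both the CV and the mean that the rule divides by. The part of this selection in the members' larger CV was not tested. The highest CVs were those of cyp2aa9 (63.4%), and3 (61.6%) and ENSDARG00000110614 (57.0%). The lowest were those of si:dkey-103j14.5 (2.68%), si:ch73-14h1.2 (3.56%) and EBP (5.05%), in all of which no normoxia library stood apart.

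**Figure D5:**
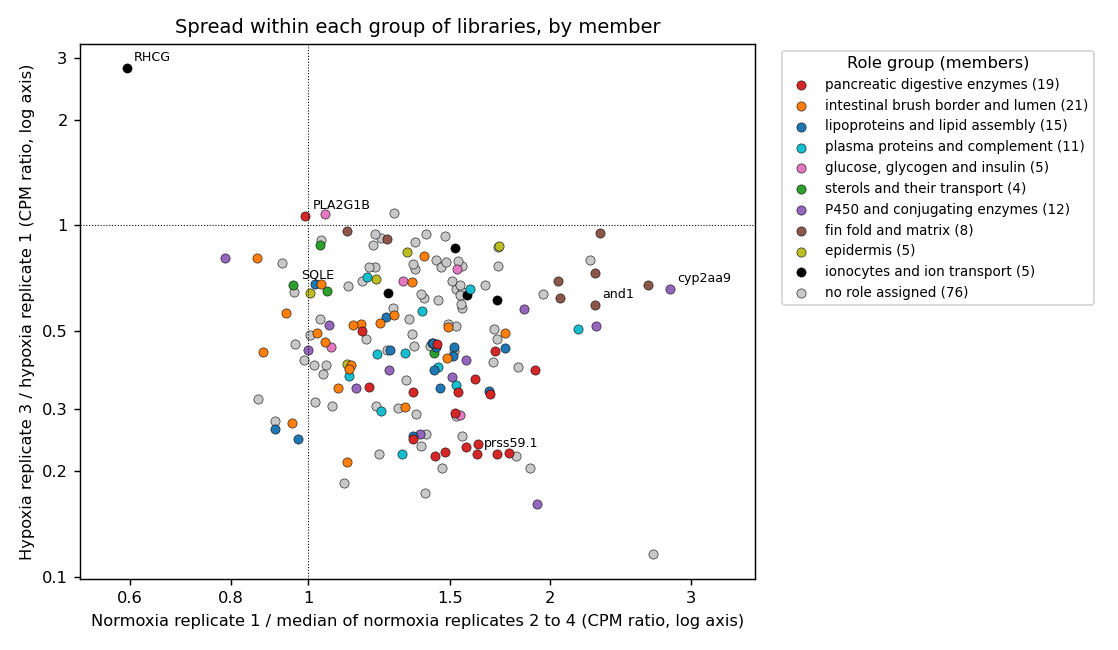
Each point is 1 member, with the ratio of normoxia replicate 1 to the median of the other 3 normoxia libraries on the horizontal log axis and the ratio of hypoxia replicate 3 to hypoxia replicate 1 on the vertical log axis. Dotted lines mark a ratio of 1. Most members lie to the right of and below these lines. Most pancreatic enzymes are at low vertical values, most fin fold and matrix genes far to the right, and RHCG far at the upper left.

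The members also varied together once the difference between the groups was taken out. After the group means of log2 CPM had been removed, the median Pearson correlation over all 16290 pairs of members was 0.748 over the 7 libraries, and 96.5% of the pairs were above 0. Among the 1322 other genes called lower the median was 0.620, and among all tested genes with at least 1 CPM in normoxia 0.0205. For members, other genes called lower and all such tested genes, the median was 0.691, 0.4685 and 0.0131 over the 4 normoxia libraries alone. Over the 3 hypoxia libraries alone it was 0.933, 0.884 and 0.051 in the same order. These are correlations over few libraries that share the same pools and totals, so they describe these 7 libraries and carry no p. Over the 7 libraries with the group difference left in, the median was 0.950, which the rule itself fixes. The rule also favours genes with a high normoxia replicate 1 or a low hypoxia replicate 3. Such a shared profile can raise the correlation left after the group means are removed. The part of this selection in the values above was not tested.

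Role sets differed in how tightly they varied together. With group means removed, the median correlation within a set was 0.959 in pancreatic enzymes, 0.947 in lipoproteins and 0.908 in fin fold and matrix genes. It was 0.839 in plasma proteins, 0.807 in the intestine, 0.784 in sterols and 0.770 in P450 and conjugating enzymes. Below the 0.748 over all pairs of members lay ionocytes (0.739), epidermis (0.700) and glucose (0.232). A member's correlation with the mean of all others had a median of 0.881 and was over 0.9 in 80 members. It was highest in VTN (0.999), APOD (0.998) and ela2 (0.992). Below 0 lay the RHCG member (-0.776) and ppp1r3c2a (-0.239), and low values were also those of PLA2G1B (0.127), ENSDARG00000095315 (0.207), B3GNT3 (0.237) and CYP2R1 (0.274).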

How the data were processed

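RNA-seq counts of 3 hypoxia and 4 normoxia pools, described in the study's methods as independent, were grouped by the sample labels. The authors trimmed reads (Trimmomatic 0.39, FastQC 0.12.1), aligned them with STAR 2.7.10 to GRCz11 (Ensembl annotation), used featureCounts 2.0.7 for gene counts and deposited whole-number counts without normalization. Strand setting and the counting of reads with several matches are not given in the sources used here.

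CPM was computed from column totals. At these totals 3 counts, taken as a floor, are 0.0383 to 0.0447 CPM (counting error only). Genes were tested with edgeR 4.0.16 under R 4.3.3 (filterByExpr, TMM with factors of 0.951 to 0.977 in hypoxia and 1.02 to 1.04 in normoxia, glmQLFit, glmQLFTest, no block), which was tested on simulated data. Correlations used log2 CPM with 0.5 counts added. DESeq2 1.42.0, other scalings and filters, other limits of the rule and leaving out each library were the alternatives.

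The members, the gene lists and the tests were chosen with earlier results of these data known, and the role groups after the members' values had been seen. Genes named by rule were the 12 members with the lowest ratios, the 12 with the highest CPM, the 3 with the highest and the 3 with the lowest CV, those beside the limit, members on a gene list or named in the study, and neighbours or families. Other members named were chosen after their values were seen. Symbols came from a table of gene names (23250 of 25049 identifiers), and RefSeq annotation of GRCz12tu was used for names, neighbours and overlaps only. Results for 2 members are not reported here. A planned search of promoter motifs was not run here.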

Additional observations from a re-analysis of the deposited data

Results flagged for a closer look

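Over the normoxia libraries of the 179 members reported here, 1 library lay far from the other 3 in 19 (10.6%). The measure is the gap between that library and the nearest other as a share of the whole normoxia range. It is set against Dixon's 95% limit for 4 values. By chance, about 1 of 20 groups of 4 samples drawn from 1 population pass that limit. The members were chosen on these same libraries and varied together over them (median correlation 0.691), so 10.6% is not read against that rate. The share over all tested genes is not given here. In 17 of the 19 the library was normoxia replicate 1, which was the highest. Among fin fold and matrix genes the measure was 0.955 in and1, 0.925 in and2, 0.907 in and3, 0.954 in FMOD, 0.939 in vcanb and 0.871 in bhlha9. It was 0.938 in crp3 and 0.887 in c4b, plasma proteins of the acute phase and of complement, 0.954 in capn12, a calpain, 0.936 in ces2b, a carboxylesterase, 0.838 in prss59.2, a trypsinogen, and 0.831 in ceacam1. The others with replicate 1 highest were ITGB3, an integrin (0.929), si:dkey-95h12.1 (0.891), ENSDARG00000105274 (0.883), ENSDARG00000110614 (0.867) and b3gnt2l (0.8496). Normoxia replicate 3 was the one apart in FUT9, a fucosyltransferase, where it was the highest (0.877), and in si:dkey-96g2.1, where it was the lowest (0.905). Without normoxia replicate 1 the rule was met by 136 of the 181 members.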

How the results depend on the processing

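All 181 members were called lower by edgeR under each scaling, with no count filter and with the replicate block, and 180 by DESeq2. With 1 library left out 179 to 181 were called, and with at least 10 counts in every library 179 of 179 tested. The members were selected on this contrast in the same libraries, so nothing is read from these calls. The number of members itself followed the limits of the rule. It was 50 with a ratio of at most 0.3, 513 with at most 0.5 and 110 with a mean normoxia CPM of at least 5, and it ran from 107 (without hypoxia replicate 3) to 374 (without hypoxia replicate 1) with 1 library left out. With TMM-scaled CPM it was 141, with a minimum of 0.5 CPM 209 and with no condition on overlap 183. The median share left was 31.7% to 35.4% with 1 library left out, the members' median normoxia CV 12.2% (without normoxia replicate 1) to 24.1%, and their median correlation 0.626 (without hypoxia replicate 1) to 0.802.

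Over all tested genes, 1271 to 2266 were called lower and 576 to 913 higher with 1 library left out, and 427 higher with library size only, which moves the median of all genes below 0. A replicate block on replicates 1 to 3 gave 1873 lower and 827 higher, and the same libraries without the block, an alternative chosen after seeing the data, 1827 and 817. Deviations from the group mean correlated between libraries of equal number at 0.190, 0.0521 and 0.0211, not all over 0.1, so the numbers are not taken to pair the pools. The planned promoter search was not run. Few counts limit members near 1 CPM, of which ENSDARG00000110614 and bdkrb1 lost their call without hypoxia replicate 2 or 3 or normoxia replicate 1.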
